A study of Mus musculus with 24 samples.

Results

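The acute phase response genes described here are 32 genes chosen by name, each taken as every probe that carries its symbol on the array. They have 50 probes and make up 32 of the 37006 distinct names on the array. By role they are the serum amyloids and pentraxins Saa1, Saa2, Saa3, Saa4, Apcs and Crp, the orosomucoids Orm1, Orm2 and Orm3 with Lrg1, and the protease inhibitors Serpina3n, Serpina3m, Itih3, Itih4 and A2m. Complement and lipopolysaccharide recognition is represented by C3, C4b, Cfb, Lbp and Cd14, and iron, copper and metal handling by Lcn2, Steap4, Cp, Mt1 and Mt2. The receptors and antagonist Il6ra, Il1r1 and Il1rn, the transcription factors Stat3, Cebpb and Cebpd, and Ttr, whose product falls in inflammation, complete the set. On the signal of the arrays, 31 of the 32 could be tested in liver, where 19647 genes were tested in all, and 27 in bone marrow, where 21510 were. A2m was not tested in liver, and Saa4, Apcs, Crp, Orm3 and Ttr were not tested in marrow, because they were not well above background on all arrays of any time there.

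In the acute phase response, interleukin 6 acting through its receptor and STAT3, together with interleukin 1 acting through NF-kappaB and C/EBP factors, makes hepatocytes raise the secretion of a set of plasma proteins within hours of injury or infection and lower others such as transthyretin. The serum amyloid A proteins and, in the mouse, serum amyloid P respond most strongly, while C-reactive protein is a minor reactant in this species. The same signals withhold iron from microbes, through hepcidin in liver and through lipocalin 2, which binds bacterial siderophores.

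The study followed male mice of genotype Erfe-/- through 3 times, 0, 24 and 48 h after blood was drawn behind the eye, with 4 mice at each time and liver and bone marrow taken as total RNA. Erfe encodes erythroferrone, the erythroblast hormone that lowers hepcidin after blood loss, and every mouse lacked it, the 0 h mice labelled as controls included. Samples of mice with Erfe were not analysed here, so nothing below compares genotypes, and effects of the blood loss cannot be told apart from those of the procedure. Whether the 0 h mice had been bled just before sampling is not clear from the sources used here, so a change from 0 h is a change from mice labelled control at that time. The labels give no age, strain or blood volume, and do not say how the replicates were housed or processed.

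Each sample was hybridised to 1 single-colour Agilent array, 24 in all. A level below is the log2 signal relative to the array's 75th percentile, and replicates are given in the order 1 to 4 of the titles, an order without meaning across groups. The probes of Saa1 (chr7:53996070-53996129), Saa2 (chr7:54009535-54009594), Lcn2 (chr2:32240199-32240258) and Mt2 (chr8:96697371-96697430) are placed on mm9 by the array design; their exons were not analysed here. Both Erfe probes were above background on 0 of the 12 liver arrays and 0 of the 11 marrow arrays used. The hepatocyte markers of liver (12 of 12 above background on every array) summed to 12.52 to 12.86 on a log2 scale. Marrow 24 h replicate 2 carried those liver transcripts at a median of 8.13% of their liver level, against 0.00581% to 0.0378% on the other marrow arrays, and it is left out of every marrow result unless named. The 75th percentile ranged over 361 to 473 intensity units on liver arrays and 715 to 955 on marrow arrays, and Spearman correlations between arrays of a tissue reached from 0.977 to 0.992 (liver) and from 0.968 to 0.992 (marrow, with that replicate included). The number of arrays limits the precision, and p-values measure the spread between these samples.

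Before any comparison of times, the livers at 0 h did not form one level of acute phase transcripts. Liver 0 h replicate 1 was the highest of the 4 livers for 30 of the 31 members tested, against 36.5% of all genes, and it was the lowest for 0 of them. The exception was Il1rn, which encodes the interleukin 1 receptor antagonist, and which was highest in replicate 2. Over the members, the median difference of replicate 1 from the mean of its time was 0.60, against 0.03 over all genes. At 0 h, replicate 2 was the lowest liver for 18 members and replicate 4 for 12.

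The transcripts that differed most between livers of one time were those for metallothioneins, serum amyloid A and lipocalin 2. Metallothionein 2 (Mt2), a cysteine-rich protein that binds zinc and copper, measured 7.61, 3.35, 3.29 and 2.12 at 0 h. It measured 5.53, 7.60, 5.26 and 3.70 at 24 h, and 6.08, 7.91, 4.96 and 6.09 at 48 h. Replicate 1 alone was high at 0 h, and replicate 2 was the highest at both later times. Its pooled SD within a time was 1.82, at percentile 99.97 of the genes tested in liver. Metallothionein 1 (Mt1), its neighbour on chromosome 8, measured 7.48, 3.97, 4.60 and 3.36 at 0 h, then 6.79, 7.69, 6.65 and 5.38, then 6.43, 7.73, 5.87 and 6.59. The order of the livers at 0 h was nearly that of Mt2.

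Serum amyloid A1 (Saa1), a lipoprotein-bound reactant, measured 9.13, 5.26, 6.78 and 5.39 at 0 h. At 24 h its levels were 9.53, 8.99, 9.49 and 8.05, and at 48 h 5.67, 8.34, 6.55 and 6.71. The highest 0 h liver lay inside the range of the 24 h livers, and the other 3 lay below it. Saa2, whose probe cannot be assumed to distinguish the close paralog, followed with 9.62, 6.02, 7.44 and 6.01, then 10.01, 9.53, 9.95 and 8.69, then 6.30, 8.91, 7.12 and 7.32. Lipocalin 2 (Lcn2) measured 5.21, 0.94, 3.01 and 1.52 at 0 h, 5.36, 5.20, 6.01 and 3.94 at 24 h, and 1.78, 3.98, 3.45 and 3.41 at 48 h. The 0 h livers covered 4.27 log2 units for Lcn2, 3.88 for Saa1 and 5.49 for Mt2.

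**Figure D1:**
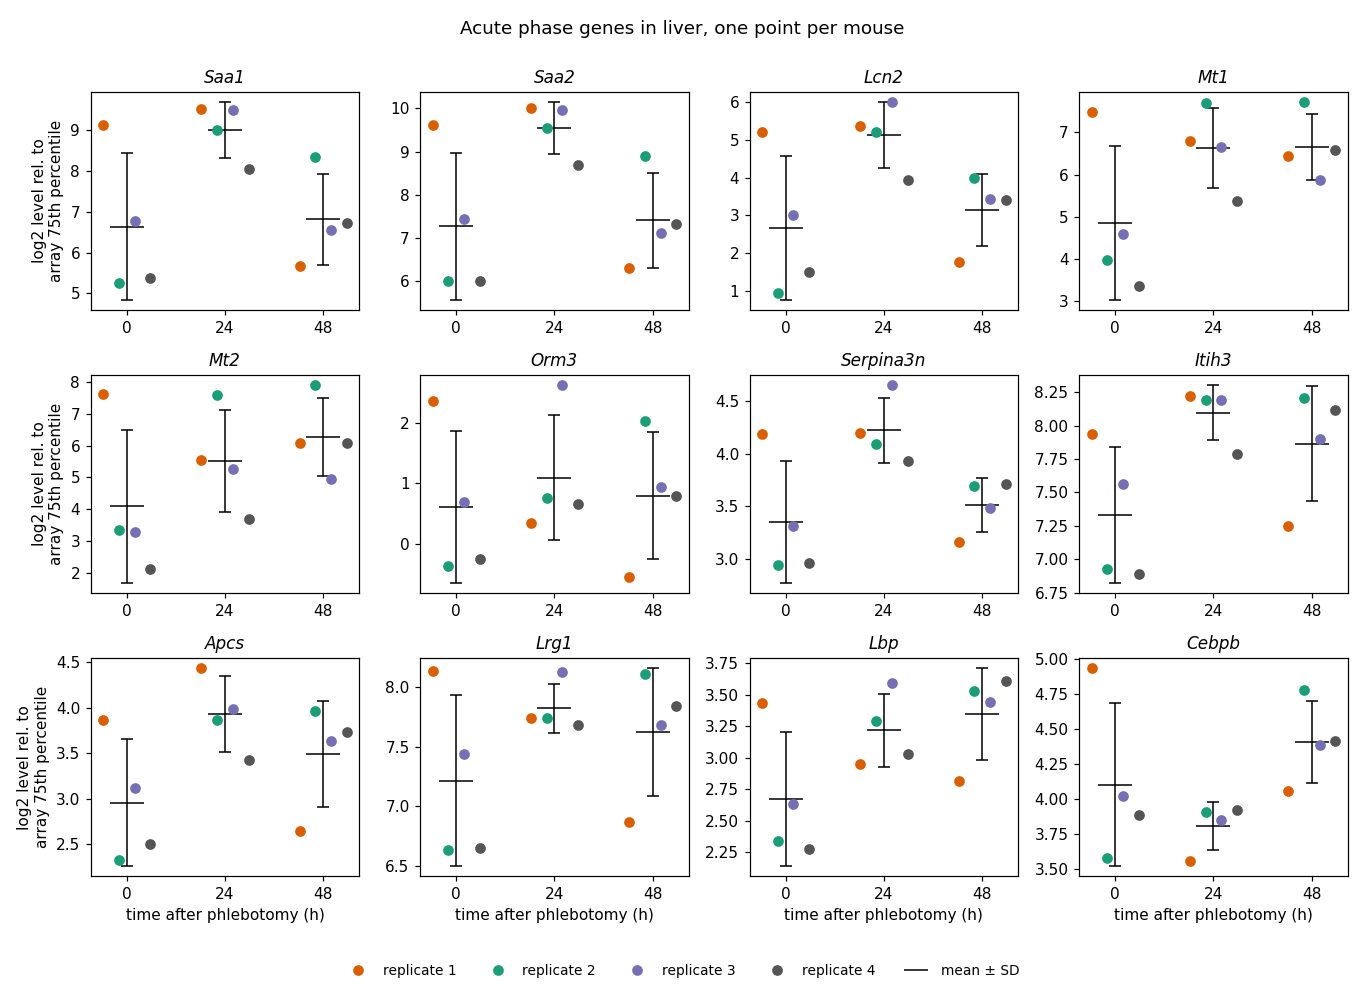
Levels of 12 acute phase genes in liver at 0, 24 and 48 h (x axis) as log2 signal relative to the array's 75th percentile (y axis, a different range in each panel); each point is the liver of 1 mouse, coloured by replicate number, and bars are the mean ± SD over 4 livers. At 0 h replicate 1 lies above the other 3 in every panel, for example at 9.13 for Saa1, where the others lie at 5.26 to 6.78.

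Orm3, an orosomucoid gene, varied at every time, with 2.35, -0.37, 0.68 and -0.25 at 0 h, 0.34, 0.75, 2.62 and 0.65 at 24 h, and -0.55, 2.02, 0.93 and 0.79 at 48 h. A different replicate was highest at each time. Il1rn was dim, at -1.88, -1.76, -2.96 and -3.19, then -2.89, -2.21, -3.44 and -2.36, then -2.22, -2.29, -3.08 and -2.77. Apcs, which encodes serum amyloid P, measured 3.87, 2.32, 3.12 and 2.50 at 0 h, 4.44, 3.87, 3.98 and 3.43 at 24 h, and 2.65, 3.96, 3.63 and 3.73 at 48 h. For each of these 3 genes the livers of different times overlapped.

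In all, 10 of the 31 members (Saa1, Saa2, Apcs, Orm3, Lcn2, Il1rn, Cebpd, Mt1, Mt2 and Lrg1) were among the genes with the top 10% of within-time SD, at or above 0.44. The members' median SD came to 0.47 among 0 h livers, 0.25 among 24 h livers and 0.33 among 48 h livers, against 0.15, 0.17 and 0.15 over all genes. Without liver 0 h replicate 1, 8 members were in that top group. With normexp background correction 23 were, and in the authors' processed values 18. The steady members included Ttr, the thyroid hormone carrier, with an SD of 0.10, Serpina3m with 0.11, Cfb with 0.15, C3 with 0.16, Cp with 0.16 and Crp with 0.18.

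Other livers stood apart less completely. Liver 48 h replicate 1 was the lowest of its time for 25 members (24.4% of all genes) and replicate 2 the highest for 22 (32.5%). At 24 h, replicate 3 was the highest for 15 (33.7%) and replicate 4 the lowest for 17 (21.2%). The Lrg1 levels, for a leucine-rich glycoprotein of plasma, show the same livers: 8.13, 6.63, 7.43 and 6.65 at 0 h, 7.74, 7.74, 8.12 and 7.68 at 24 h, and 6.87, 8.11, 7.68 and 7.84 at 48 h.

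**Figure D2:**
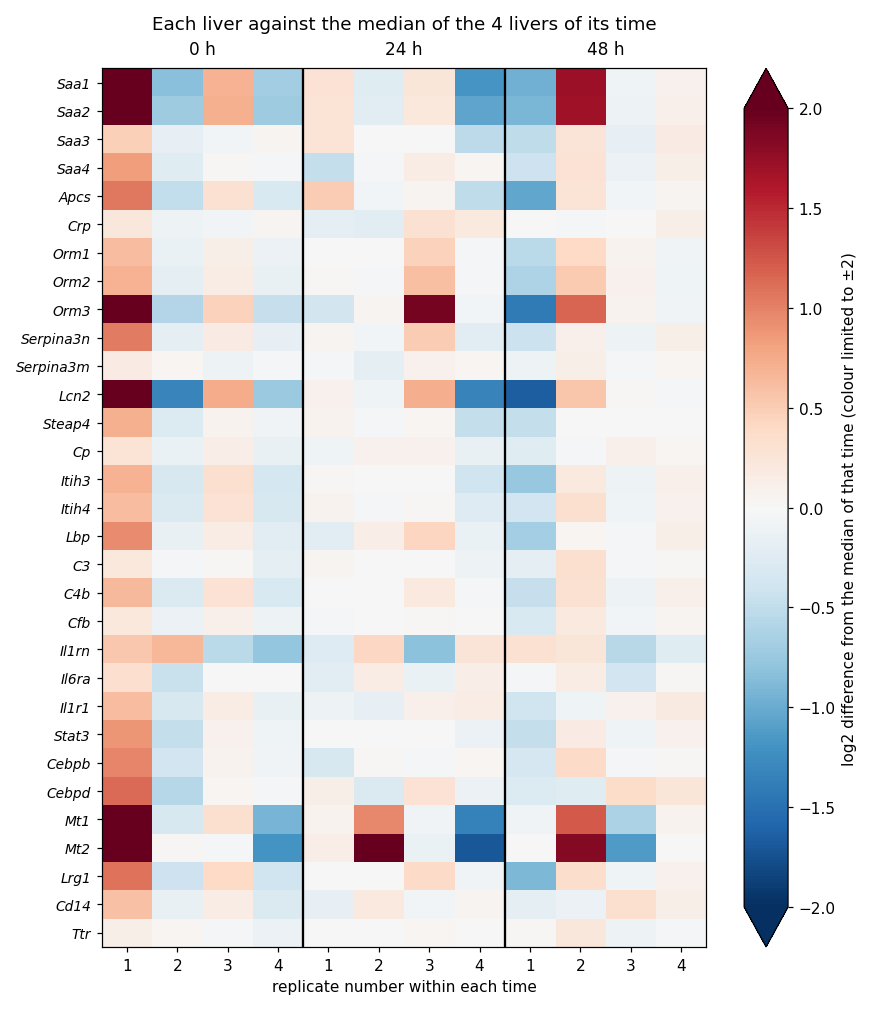
Log2 difference of each of the 12 livers (columns, by time and replicate number) from the median of the 4 livers of its time, for the 31 members tested in liver (rows); red is above and blue below that median, and the colour is limited to 2 log2 units on either side. The first column, liver 0 h replicate 1, is red in every row, and the column of 48 h replicate 1 is mostly blue.

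Markers of other cell types were measured in the same livers. The 7 Kupffer cell markers, all above background on every array, summed to 6.58 in liver 0 h replicate 1 and to 5.75 to 6.18 in the other 3 at 0 h. The 6 monocyte and macrophage markers summed to 6.37 there and to 5.70 to 6.24 in the others. Neutrophil markers, the relevant ones for Lcn2 since neutrophils store its protein, summed to 3.21, 1.94, 2.18 and 5.16 in replicates 1 to 4 at 0 h, where Lcn2 measured 5.21, 0.94, 3.01 and 1.52. Replicate 1 thus had the second of the 4 sums and the highest Lcn2. At 24 h the neutrophil sum ranged from 2.78 to 4.76, against 1.91 to 3.77 in the 48 h livers. Within 24 h the lowest sum and the lowest Lcn2 were both in replicate 4. The highest sum there was in replicate 1 and the highest Lcn2 in replicate 3. On a liver array, 5 to 10 of the 10 neutrophil markers were above background. Whether more of a cell type or more RNA per cell set a level cannot be told apart in bulk samples, and the part of these cells in the members' levels was not tested. On the array of liver 0 h replicate 1, the 75th percentile was 382 intensity units and 32520 probes were well above background, both within the range of the liver arrays.

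At 24 h after phlebotomy, liver levels of 24 of the 31 members lay above those at 0 h on average, while 44.6% of all genes did. limma called 0 members and 0 of 19647 genes (0%) past an adjusted p of 0.05. At an unadjusted p under 0.05, 8 members were higher and 0 lower, against 4.95% and 5.98% of all genes. Their median change was 0.26, and that of all genes -0.02. Marker sums of other cell types differed between times too. The 6 erythroid markers, 5 of them above background on every liver array, summed to 7.49 to 7.77 at 0 h, 8.003 to 8.064 at 24 h and 7.97 to 8.61 at 48 h, without overlap between 0 h and later livers. That sum is mostly Hba-a1 (7.34 to 8.53 over the livers, with Alas2 next at 3.66 to 4.48). The median over the 6 markers did overlap. It was 0.37 in 0 h replicate 4, above 24 h replicate 4 at -0.32 and 48 h replicate 1 at 0.05. The 4 B cell markers summed to 0.05 to 0.28 in 0 h livers, 0.27 to 1.21 in 24 h livers and 0.05 to 0.30 in 48 h livers. Their part in the members' differences was not tested. In 0 members did the 4 livers at 24 h all lie above the 4 at 0 h (2.30% of all genes) or all below (3.23%).

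By size, Lcn2 was 5.48-fold, Saa1 5.19-fold and Saa2 4.83-fold above 0 h, with log2 differences of 2.45 (SE 0.84), 2.38 (SE 0.81) and 2.27 (SE 0.77). The limma adjusted p-values were 0.369, 0.370 and 0.366, and the exact two-sided permutation test, which cannot go below 0.0286 here, gave 0.0857 for each. Serpina3n, a serine protease inhibitor made by hepatocytes under interleukin 6, measured 4.18, 2.94, 3.31 and 2.97 at 0 h, 4.20, 4.09, 4.65 and 3.93 at 24 h, and 3.16, 3.70, 3.49 and 3.71 at 48 h. All 24 h livers exceeded the 0 h replicates 2 to 4, and 2 of them exceeded replicate 1 too. Its difference at 24 h was 0.87 (SE 0.26), with a limma p of 0.00664 unadjusted and 0.345 adjusted. That was the smallest among the members on their brightest probes. Dimmer probes of Stat3 and Crp had a smaller unadjusted limma p at 24 h, 0.000232 and 0.00614. Itih3, a heavy chain that stabilises hyaluronan, measured 7.93, 6.93, 7.56 and 6.89, then 8.22, 8.20, 8.19 and 7.79, then 7.25, 8.20, 7.90 and 8.11. Its difference at 24 h was 0.77 (SE 0.26, limma adjusted p = 0.366).

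Of the other members with an unadjusted p under 0.05 at 24 h, Apcs differed by 0.98 (SE 0.37), Mt1 by 1.78 (SE 0.80) and Cp, the ferroxidase of plasma, by 0.26 (SE 0.11). Cp measured 7.22, 6.81, 7.07 and 6.80 at 0 h, 7.18, 7.33, 7.34 and 7.10 at 24 h, and 6.98, 7.18, 7.33 and 7.27 at 48 h. None of these 3 passed the adjusted threshold. Mt2 differed by 1.43 with groups that overlapped widely. Ttr, which falls in inflammation, differed by -0.06, and Crp by 0.00. The factors Stat3, Cebpb and Cebpd, which relay the cytokine signal, differed by 0.29, -0.29 and -0.02 on their brightest probes, and the receptors Il6ra and Il1r1 by -0.21 and 0.05. Probes of a gene did not always give the same size. The other Stat3 probes differed at 24 h by 0.71 (SE 0.14) and 0.47 (SE 0.22). The dimmer Crp probe differed by 0.59 (SE 0.18), that of Lcn2 by 2.67 (SE 0.87) and that of Itih4 by 0.67 (SE 0.29). That of Il6ra was lower, by -0.23 (SE 0.13). At 48 h these other probes differed from 0 h by 0.39 (SE 0.14) and 0.43 (SE 0.22) for Stat3 and by 0.49 (SE 0.18) for Crp. For Lcn2 the difference was 0.59 (SE 0.87), for Itih4 0.67 (SE 0.29) and for Il6ra 0.18 (SE 0.13). The array design places the dimmer Crp probe at chr1:174762815-174762874 and the brighter one at chr1:174629452-174629511 on mm9. Whether both measure the same transcript is uncertain.

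The remaining members ranged less over the 12 livers than Saa1, Lcn2 or Mt2. Saa3, the serum amyloid made chiefly outside hepatocytes, ranged from 1.12 to 2.27, and Saa4, the constitutive form, from 3.73 to 4.92. Orm1 lay between 7.45 and 8.52, Orm2 between 5.91 and 7.21, and Itih4 between 8.38 and 9.51. The within-time SDs of these members, from Saa3 to Itih4, were still at percentiles 79.8 to 87.9 of the genes tested in liver. The mean changes at 24 h were 0.39 for Saa3, -0.12 for Saa4, 0.23 for Orm1, 0.26 for Orm2 and 0.41 for Itih4, without a call. C3 and C4b differed from 0 h by 0.10 and 0.18 at 24 h, and Cd14, the lipopolysaccharide coreceptor, by 0.08. A2m, whose product traps proteases, was above background on 0, 1 and 0 of 4 livers at 0, 24 and 48 h.

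The promoters of the 3 members with the largest differences are shown because serum amyloid A genes are textbook targets of C/EBP factors. Promoter sequences were taken from RefSeq (GRCm38.p6), 250 bases ending just before the annotated start, and 23 of the 32 members matched an entry. Capitals mark matches to TTGCNNAA on either strand, a C/EBP core.
Saa1: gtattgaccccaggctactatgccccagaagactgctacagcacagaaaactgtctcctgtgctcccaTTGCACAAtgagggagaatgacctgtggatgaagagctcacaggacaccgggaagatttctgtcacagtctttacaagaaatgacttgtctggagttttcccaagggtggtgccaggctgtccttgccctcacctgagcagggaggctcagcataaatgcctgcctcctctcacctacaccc
Saa2: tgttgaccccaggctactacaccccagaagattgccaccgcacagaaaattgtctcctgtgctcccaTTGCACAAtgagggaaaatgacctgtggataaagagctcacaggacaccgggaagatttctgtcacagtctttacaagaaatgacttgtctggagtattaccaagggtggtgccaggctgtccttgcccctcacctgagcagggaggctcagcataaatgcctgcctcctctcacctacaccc
Lcn2: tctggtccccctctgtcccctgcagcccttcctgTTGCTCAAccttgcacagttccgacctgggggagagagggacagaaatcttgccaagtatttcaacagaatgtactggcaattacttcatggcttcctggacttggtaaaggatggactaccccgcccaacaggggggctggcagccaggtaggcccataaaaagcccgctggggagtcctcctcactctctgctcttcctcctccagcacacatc
The windows are chr7:46742981-46743230 on the minus strand for Saa1, chr7:46751583-46751832 on the plus strand for Saa2 and chr2:32387740-32387989 on the minus strand for Lcn2. Aligned to each other, those of Saa1 and Saa2 were identical at 238 of 251 positions (94.8%), and both hold TTGCACAA. The core TTGCNNAA, of which TTGCACAA is 1 form, was present in 12 of the 23 member genes matched (52.2%) and in 9.56% of all 32851 promoters. The STAT core TTCNNNGAA was in 3 of 23 (13%) against 7.02%, and CTGGGAA, an interleukin 6 response motif, in 4 of 23 (17.4%) against 9.10%. A match describes the letters in this window and says nothing of binding in these livers.

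At 48 h, 28 of the 31 members lay above 0 h on average (44.1% of all genes), with a median difference of 0.22 against -0.02 over all genes. limma again called 0 members and 0 genes (0%). At an unadjusted p under 0.05, 4 members were higher (2.56% of all genes) and 0 lower (3.88%), together 6.44% of genes. In 0 members did all livers at 48 h lie above (1.77%) or below (2.44%) all those at 0 h. Lbp, the plasma protein that presents lipopolysaccharide to Cd14, measured 3.44, 2.34, 2.63 and 2.28 at 0 h, 2.95, 3.29, 3.60 and 3.03 at 24 h, and 2.81, 3.53, 3.45 and 3.61 at 48 h. Replicates 2 to 4 at 0 h lay below all later ones. Its difference at 48 h was 0.68 (SE 0.26, limma adjusted p = 0.708).

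Steap4, a metalloreductase, measured 0.78, -0.20, 0.14 and 0.00 at 0 h, 0.80, 0.68, 0.77 and 0.25 at 24 h, and 0.31, 0.77, 0.79 and 0.79 at 48 h, a difference of 0.49 (SE 0.20) at 48 h. Cfb, complement factor B, measured 7.35, 7.02, 7.24 and 7.04, then 7.29, 7.32, 7.33 and 7.31, then 7.14, 7.64, 7.39 and 7.50, a difference of 0.25 (SE 0.11). Mt1 was 3.49-fold above 0 h at 48 h (log2 1.80, SE 0.80) on its brightest probe. Its other probe differed by 1.79 (SE 1.24) at 24 h and 2.81 (SE 1.24) at 48 h. Mt2 differed by 2.17. Saa1, Saa2 and Lcn2 differed from 0 h by 0.18, 0.14 and 0.48 at 48 h, each less than its SD at 0 h.

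Between 24 and 48 h, the mean levels of Saa1, Saa2, Lcn2 and Serpina3n went down and that of Cebpb went up, with no call. limma called 0 members and 0 genes (0%), and at an unadjusted p under 0.05 4 members were lower (3.95% of all genes) and another higher (3.67%), with 7.63% of genes in either direction. On average 14 of 31 members were above 24 h (50.1% of all genes), and 2 members had groups that did not overlap (3.66%). The lower members were Saa1 by -2.20 (SE 0.81), Saa2 by -2.14 (SE 0.77), Lcn2 by -1.97 (SE 0.84) and Serpina3n by -0.71 (SE 0.26), with limma adjusted p-values of 0.569, 0.569, 0.629 and 0.569. For Serpina3n the 4 livers at 48 h all lay below the 4 at 24 h, as in 1.93% of all genes, and the exact permutation p was 0.0286, the smallest this design can give. Cebpb, a C/EBP factor, measured 4.93, 3.57, 4.02 and 3.88 at 0 h, 3.55, 3.91, 3.85 and 3.92 at 24 h, and 4.06, 4.78, 4.38 and 4.41 at 48 h. All its 48 h livers exceeded all its 24 h livers, as in 1.73% of all genes, and the difference was 0.60 (SE 0.25, limma adjusted p = 0.615). Without liver 48 h replicate 1, the lowest of its time for most members, 1 member rather than 5 had an unadjusted p under 0.05 here, Cebpb with a difference of 0.72. The count was 2 without liver 24 h replicate 3, and 3 without 24 h replicate 1 or 48 h replicate 4. The shares of all genes with these arrays left out are not given here, so the counts cannot be set against them.

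The differences from 0 h rest in size on liver 0 h replicate 1. Leaving that array out, which must widen a difference that the array narrows and was singled out after its values were seen, gave 15 members higher at 24 h at an unadjusted p under 0.05 (5.77% of all genes) and 0 lower (4.92%). At 48 h there were 16 higher (3.38%) and 0 lower (3.45%). limma still called 0 members and 0 genes at either time. Without it Saa1 differed by 3.21 (SE 0.61), Saa2 by 3.06 (SE 0.59), Lcn2 by 3.30 (SE 0.64), Mt1 by 2.65 (SE 0.55) and Serpina3n by 1.14 (SE 0.19) at 24 h, with limma adjusted p-values from 0.223 to 0.245. In 16 members the 4 livers at 24 h then all lay above the remaining 3 (5.11% of all genes), and in 7 members those at 48 h did (3.82%). The 7 were Cebpb, Cebpd, Crp, Lbp, Mt1, Mt2 and Steap4.

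The counts at an unadjusted p under 0.05 moved with other livers too. At 24 h there were 5 members without liver 24 h replicate 1 and 5 without liver 0 h replicate 4. At 48 h there were 8 without liver 48 h replicate 1, 2 without 0 h replicate 3, 1 without 48 h replicate 3, and 0 without 0 h replicate 2, 0 h replicate 4, 48 h replicate 2 or 48 h replicate 4. The shares of all genes in these settings are not given here. A shift of these counts therefore cannot be told apart from a shift over all genes. Within slides, which hold 8 arrays each and all 3 times of liver, Saa1 was above 0 h at 24 h by 2.33, 2.21 and 3.38, and Lcn2 by 2.28, 2.19 and 3.45. At 48 h Saa1 differed by -1.53 within the slide that held liver 0 h replicate 1 and 48 h replicate 1, and by 0.67 and 1.32 within the others. With the slide as a block the 24 h differences were 2.53 for Saa1 and 2.51 for Lcn2.

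**Figure D3:**
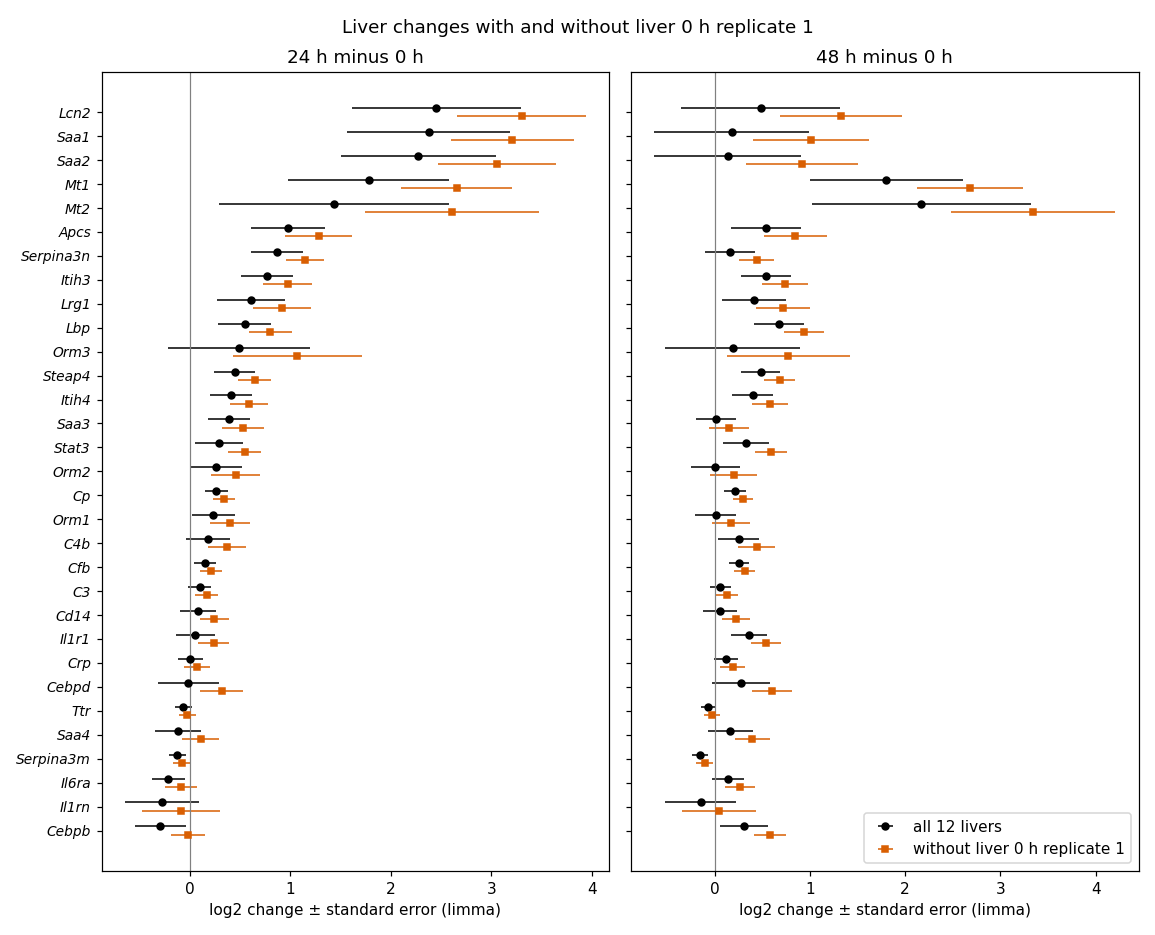
Log2 change from 0 h (x axis, ± standard error of the limma fit) of the 31 members tested in liver, at 24 h (left) and 48 h (right), from all 12 livers (black circles) and without liver 0 h replicate 1 (orange squares). Without that array the change of Saa1 at 24 h goes from 2.38 to 3.21 and that of Mt2 at 48 h from 2.17 to 3.34.

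Genes outside the set that belong to the same response were measured in 3 further lists. Of the cytokine and receptor signalling genes, 24 of 26 were tested in liver, and limma called 0 at any time. At an unadjusted p under 0.05, 4 were higher and 1 lower at 24 h: Nfkbiz, an inducible NF-kappaB cofactor, by 0.74, Osmr, the oncostatin M receptor, by 0.56, Tnf by 0.35 and Il6st, the shared receptor subunit gp130, by 0.28, with Lifr at -0.56. Of the other positive acute phase proteins, 21 of 22 were tested, 0 were called, and 4 were higher at 24 h at that level: Fgl1, a fibrinogen-like hepatokine, by 1.37, Fga, the fibrinogen alpha chain, by 0.46, the zinc transporter Slc39a14 by 0.39 and Itih2 by 0.29. Among the 10 negative acute phase proteins, all tested, 0 were called and Serpina6, the corticosteroid carrier, was higher by 0.50. Over all genes, 4.95% were higher and 5.98% lower at that level at 24 h. At 48 h the corresponding counts were 2, 2 and 2 higher and 0 lower in each list, against 2.56% and 3.88% of all genes.

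In bone marrow, 1 member passed the test at both times: Mt2. Its levels were 3.98, 3.89, 4.04 and 3.97 at 0 h, 5.20, 4.86 and 5.06 at 24 h in replicates 1, 3 and 4, and 5.04, 5.25, 5.11 and 5.09 at 48 h. Every later array lay above every 0 h array. Mt2 rose 2.10-fold at 24 h (log2 1.07, SE 0.09, limma adjusted p = 0.000742) and 2.22-fold at 48 h (log2 1.15, SE 0.09, limma adjusted p = 0.000261). limma called 1 of 27 members at 24 h, where it called 135 of 21510 genes (0.628%), and 1 of 27 at 48 h, where it called 379 (1.76%, and 1.36% higher). Markers of other cell types shifted in the same marrow. The 7 Kupffer cell markers, of which 5 to 6 were above background, summed to 4.31 to 4.64 in 0 h samples, 3.85 to 4.07 in 24 h samples and 3.78 to 4.22 in 48 h samples. The 4 B cell markers, all above background, summed to 5.03 to 5.76, 4.51 to 5.08 and 4.68 to 5.52 in the same order. The 6 erythroid markers, all above background, summed to 10.04 to 10.45 at 0 h, 10.04 to 10.25 at 24 h and 10.25 to 10.52 at 48 h, with overlap. The part of these cell types in the Mt2 change was not tested.

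Mt1 was also higher at both later times, without passing the threshold. It measured 4.69, 4.53, 4.57 and 4.20 at 0 h, 5.18, 5.02 and 4.86 at 24 h, and 4.86, 5.10, 5.11 and 5.05 at 48 h, without overlap between 0 h and either later time. Of all genes, 13.8% at 24 h and 12.6% at 48 h had groups that did not overlap, 8.72% and 7.95% upward. The differences were 0.52 (SE 0.13) and 0.54 (SE 0.12), with limma adjusted p-values of 0.113 and 0.0521. Within-time spread of Mt2 was 0.12 in marrow, against 1.82 in liver. The promoter of Mt2 is shown for its metal response motifs, TGCACNC or TGCGCNC on either strand, in capitals.
Mt2: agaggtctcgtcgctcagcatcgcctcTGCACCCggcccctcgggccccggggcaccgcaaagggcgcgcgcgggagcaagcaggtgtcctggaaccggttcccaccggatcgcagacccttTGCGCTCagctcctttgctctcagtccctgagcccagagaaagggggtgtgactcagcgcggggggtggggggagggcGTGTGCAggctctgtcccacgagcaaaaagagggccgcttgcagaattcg
The window, chr8:94172368-94172617 on the plus strand of GRCm38.p6, holds 3 matches, and that of Mt1 holds one. Of the 23 members matched, 3 (Mt1, Mt2 and Orm3) held the motif, 13%, against 21.4% of all promoters.

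Serpina3n and Itih3 were dim in marrow, and their means were higher at the later times, with no call. Neither was well above background on all 0 h arrays, so both were kept for the test only through a later time. Such a filter favours genes that are high later. The p-values and the lack of overlap below therefore cannot decide whether these 2 genes rose. Serpina3n measured -3.51, -5.01, -3.42 and -4.39 at 0 h, where 3 of 4 arrays were above background, -2.56, -2.0 and -1.93 at 24 h, and -2.73, -2.36, -3.27 and -2.03 at 48 h. The 0 h arrays overlapped with neither later time. The differences were 1.92 (SE 0.40) and 1.49 (SE 0.37), with limma adjusted p-values of 0.0727 and 0.0785. Itih3 measured -4.28, -6.92, -5.21 and -5.78 at 0 h, with 1 of 4 arrays above background, -4.50, -3.96 and -4.58 at 24 h, and -4.09, -3.60, -4.13 and -3.52 at 48 h. Its differences of 1.20 and 1.71 (limma adjusted p = 0.356 and 0.0885) are set against a 0 h group that was mostly not well above background. On the 11 arrays the hepatocyte markers summed to 1.09 to 2.49 at 0 h, 0.996 to 1.12 at 24 h and 1.06 to 1.32 at 48 h, and their part in these levels was not tested.

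C4b, complement component 4, measured 1.73, 1.30, 1.54 and 1.27 at 0 h, 1.99, 1.74 and 1.66 at 24 h, and 1.86, 1.82, 1.66 and 1.70 at 48 h, differences of 0.33 and 0.30 (limma adjusted p = 0.318 and 0.215). A C4b probe also lists the accession of another gene, so its level is uncertain. Il1rn measured 0.68, 0.66, 0.61 and 0.52 at 0 h, 0.53, 0.88 and 0.60 at 24 h, and 0.06, 0.19, 0.51 and 0.35 at 48 h. At 48 h, all its arrays lay below the earlier ones, as in 4.68% of all genes against 0 h and 2.48% against 24 h, by -0.34 against 0 h (limma adjusted p = 0.139) and -0.39 against 24 h (limma adjusted p = 0.744). C3, the central complement component, measured 6.59, 6.09, 6.32 and 6.12, then 6.23, 6.64 and 6.15, then 5.63, 5.79, 6.28 and 5.98, a difference of -0.42 between 24 and 48 h (limma adjusted p = 0.782).

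**Figure D4:**
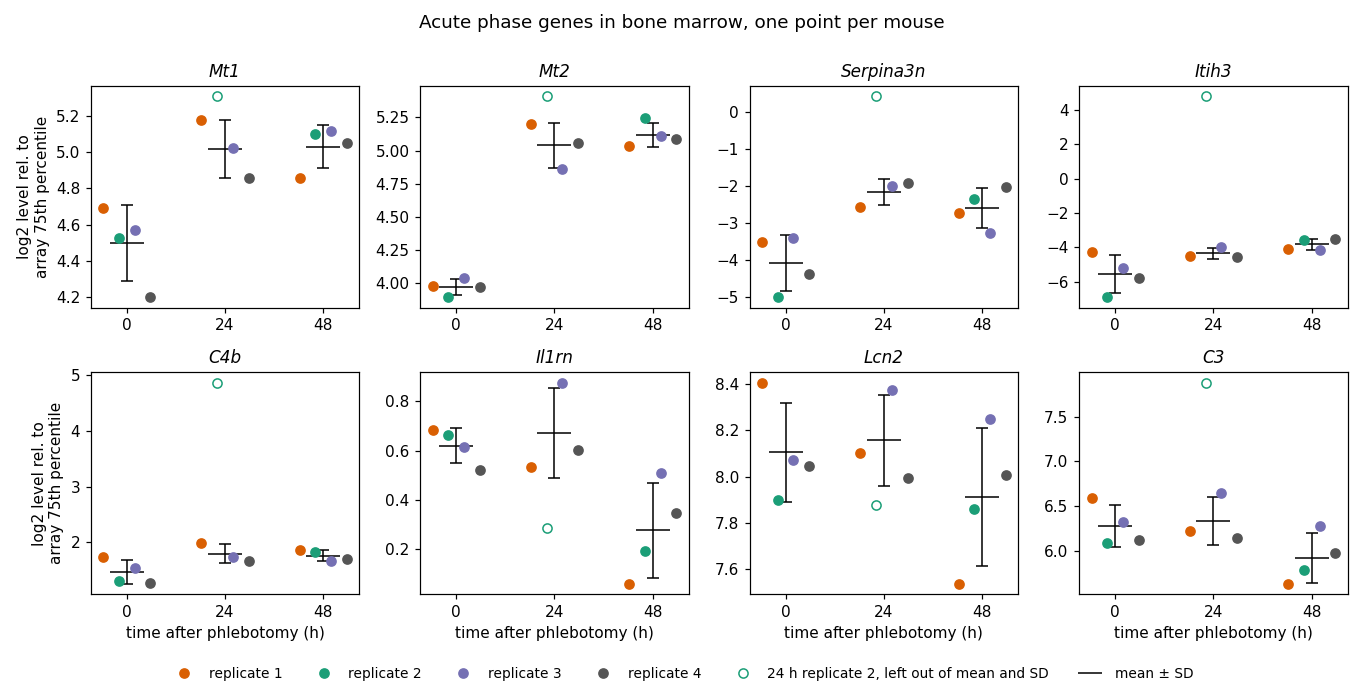
Levels of 8 acute phase genes in bone marrow at 0, 24 and 48 h (x axis) as log2 signal relative to the array's 75th percentile (y axis, a different range in each panel); each filled point is the marrow of 1 mouse, the open point is 24 h replicate 2, and bars are the mean ± SD over the filled points. For Mt2 the 0 h arrays lie at 3.89 to 4.04 and the later filled points at 4.86 to 5.25.

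Saa1 and Saa2 were far lower in marrow than in liver. Saa1 measured -1.43, -1.56, -1.84 and -1.39 at 0 h, -1.66, -1.82 and -1.78 at 24 h, and -1.40, -1.65, -1.49 and -1.56 at 48 h. Saa2 measured -3.79, -3.81, -3.92 and -3.75, then -4.15, -4.20 and -4.36, then -3.38, -4.05, -4.42 and -3.98. All 24 h arrays lay below the 0 h arrays for Saa2, by -0.42 (limma adjusted p = 0.421), as in 5.12% of all genes. For Saa1 the 48 h arrays lay above those of 24 h, by 0.23 (limma adjusted p = 0.785), as in 3.44% of all genes. On the array left out, marrow 24 h replicate 2, Saa1 stood at 5.72 and Saa2 at 5.47.

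At an unadjusted p under 0.05, marrow held 5 members higher at 24 h (7.35% of all genes) and 0 lower (4.79%). The 48 h counts were 5 higher (11.1%) and 1 lower (7.10%). Both counts of 5 include Serpina3n and Itih3, which were kept for marrow only through a later time. Members above 0 numbered 17 of 27 at 24 h (51.1% of all genes) and 10 of 27 at 48 h (50.2%), with median differences of 0.08 and -0.04. Between 24 and 48 h limma called 0 members, and 1 gene of 21510 (0.00465%); 2 members, C3 and Il1rn, were lower at an unadjusted p under 0.05 (2.57%), 6 without marrow 48 h replicate 3. The count of 5 at 24 h was 3 without marrow 24 h replicate 1, 0 h replicate 2 or 0 h replicate 4. For these left-out arrays the shares of all genes are not given here. Of the 3 wider lists, 1 of 25 cytokine and receptor genes, 3 of 11 other positive and 4 of 8 negative acute phase proteins were lower at 24 h in marrow at an unadjusted p under 0.05, against 4.79% of all genes, and 1, 0 and 0 were higher (7.35%). limma called 0 of them. They included Fgb by -3.22, Serpina1a by -3.07, Alb by -2.69, Ahsg by -2.36 and Serpina1c by -2.26, all hepatocyte products. Among the hepatocyte markers, Alb was above background on 7, Ahsg on 8 and Serpina1c on 11 of the 11 marrow arrays. The filter keeps a gene well above background on all arrays of any 1 time, which favours dim genes high at that time. These counts therefore cannot decide whether such genes fell. The hepatocyte marker sum at 0 h was 2.49 in replicate 1 and 1.09 to 1.52 in the others. That sum itself includes Alb, Ahsg and Serpina1c, and its part in these differences was not tested. Socs3, the feedback inhibitor of STAT3 signalling, differed by 0.90 at 24 h (limma adjusted p = 0.216).

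The tissues at 0 h differed for most members. Between marrow and liver limma called 27 of 32 members and 79.7% of all 22861 genes, with 4 members higher in marrow (39.4% of all genes) and 23 lower (40.2%). The 4 were Lcn2 by 5.43, Il1rn by 3.07, Cebpd by 2.80 and A2m by 2.75. Lcn2 measured 8.41, 7.90, 8.07 and 8.04 in marrow, where 10 of 10 neutrophil markers were above background on every array, and lay above its 12 liver arrays there. A2m was at background on every liver array of 0 h and was at least 2.02-fold higher in marrow. Such a bound sets the brighter mean against the higher of the dim probe's own signal and the lowest signal well above background on each array.

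Of the members lower in marrow, Saa4 was at least 701-fold, Apcs at least 286-fold, Crp at least 125-fold and Orm3 at least 56.2-fold lower, since none was above background on any marrow array at 0 h. Itih3, Itih4 and Ttr were above background on 1 of 4 marrow arrays; a fold change of these 3 is not given. Serpina3m, Saa2, Cfb and Saa1 were lower, with differences of -10.86, -11.09, -8.19 and -8.19, and so were Orm1, Orm2 and C4b, with -6.73, -6.74 and -6.56. The probe of Orm1 also lists the transcript of Orm2. Lbp, Stat3 and Il1r1 differed less, by -1.06, -0.84 and -1.87. The threshold was missed by Il6ra at -0.13 (SE 0.16), Mt1 at -0.36 (SE 0.80), Mt2 at -0.12 (SE 1.05), Cd14 at 0.50 (SE 0.25) and Cebpb at -0.82 (SE 0.36), which does not show equal levels.

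**Figure D5:**
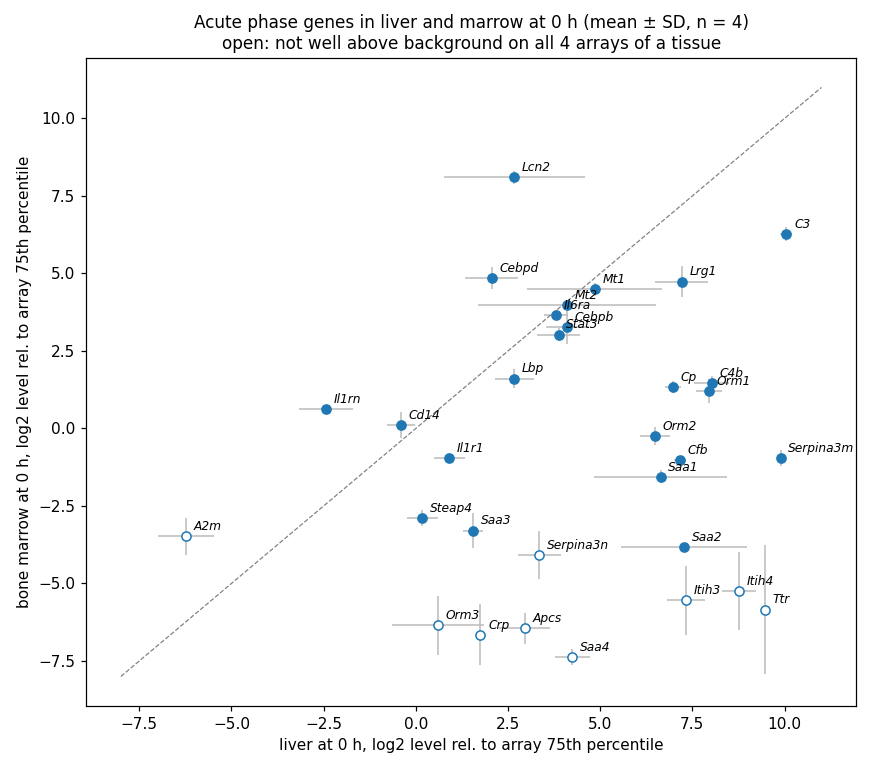
Mean level of each of the 32 members in liver (x axis) and bone marrow (y axis) at 0 h, as log2 signal relative to the array's 75th percentile, with SD bars over 4 arrays; open points were not well above background on all 4 arrays of a tissue, and the dashed line marks equal values. Lcn2, Il1rn, Cebpd and A2m lie above the line, and Mt2 lies on it with an SD of 2.42 in liver and 0.06 in marrow.

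The change after phlebotomy was set against the same change in the other tissue by an interaction term over 23 arrays. limma called 0 members at 24 h, where it called 50 of 22861 genes (0.219%), and 0 at 48 h, where it called 110 (0.481%). The largest differences were those of Saa2 at 24 h, -2.69 (SE 0.90, limma adjusted p = 0.220), and Saa1, -2.57 (SE 0.93, limma adjusted p = 0.270), negative because the mean change was larger in liver. Without liver 0 h replicate 1 these 2 were called, at -3.47 (limma adjusted p = 0.0325) and -3.40 (limma adjusted p = 0.0383). Leaving that array out must widen these 2 differences, and it was singled out after its values were seen. The share of all genes called without it is not given here. Mt2, which passed in marrow only, differed between tissues by -0.36 (SE 1.30) at 24 h and -1.02 (SE 1.25) at 48 h, with no call.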

How the data were processed

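Spots were read by Agilent Feature Extraction 10.10.1.1, per the submitters' processing notes, and the deposited processed intensity is background subtracted and not scaled between arrays, per the file headers. The authors also deposited log2 values, with equal quantiles between arrays of a tissue, as found in the values; limma is named in the submitters' processing notes, and how they were made is not given in the sources used here, and they served as an alternative.

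Log2 processed intensity minus the array's 75th percentile was used. The 3671 control spots and outlier spots were left out, 0 spots were saturated, and spots of a probe were averaged. Probes well above background on all arrays of a group were kept for that tissue, and the brightest kept probe stood for a gene. Changes were tested with limma 3.58.1 (R 4.3.3; lmFit, eBayes), with Benjamini-Hochberg adjustment over all genes tested at 0.05, the 3 times fitted together per tissue. On simulated data the test recovered 85% of 100 genes changed by 1 log2 unit in liver between 0 and 48 h, and 79% in marrow. Another 100 genes were changed by 2 log2 units in each tissue. The changed genes were picked at random and the noise was independent between genes. The recovery therefore does not hold for members as variable between livers as Saa1 (pooled SD 1.28) or Mt2 (1.82). Exact permutation tests reach 0.0286 at best. Each of the 3 slides held 8 arrays.

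All 32 members are named; array values are given for members that passed the adjusted threshold, had an unadjusted limma p under 0.05, had groups that did not overlap, or were among the 8 most variable in liver. Members, lists and rules were chosen with earlier results of these data known. Same-numbered arrays did not deviate together within a tissue. Across tissues at 0 h their correlations ran from 0.07 to 0.14, each above the other 12 pairs (highest 0.06). The labels do not say that numbers pair animals, so the fits treat samples as unpaired. Any such pairing is ignored in the tests between tissues. Alternatives covered scaling, background correction, filter, probes per gene, blocks, variance model, weights and left-out arrays.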

Additional observations from a re-analysis of the deposited data

Results flagged for a closer look

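In groups of 4 arrays, 7 of the 147 member and group combinations (4.76%) had an array whose gap to the nearest other over the group's range exceeded Dixon's 95% critical value; chance gives about 1 in 20. In liver at 24 h, replicate 3 was apart for Orm1 (gap over range 0.911; 8.52 against 8.04 to 8.08), Orm2 (0.936; 7.21 against 6.59 to 6.63) and Lrg1 (0.855; 8.12 against 7.68 to 7.74). Replicate 4 of that time was the low liver for Itih3 (0.925; 7.79 against 8.19 to 8.22). In liver at 48 h, replicate 1 was low for Steap4 (0.965; 0.31 against 0.77 to 0.79). In marrow at 0 h, replicate 2 was high for Cp (0.895; 1.61 against 1.21 to 1.26) and replicate 1 for Stat3 (0.841; 3.34 against 2.89 to 2.96). Liver 0 h replicate 1, high for nearly every member, met this criterion for 0 of them, because replicates 2 to 4 were themselves spread.

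Marrow 24 h replicate 2 is left out of the main marrow comparisons and put back only in an alternative. On it, 15 of the 27 members stood above all 11 other marrow arrays, among them Serpina3m at 6.83, Saa1 at 5.72, Saa2 at 5.47 and Itih3 at 4.83. Hepatocyte markers were high on the same array; their part in these levels was not tested.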

How the results depend on the processing

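In liver, the count of members past an adjusted p of 0.05 was 0 for each pair of times under all 23 alternatives, left-out arrays included. In marrow, Mt2 was called at both times under all 23, with changes of 0.99 to 1.16 at 24 h and 1.09 to 1.18 at 48 h. The 23 include a fit with marrow 24 h replicate 2 put back, where Mt2 changed by 1.16 at 24 h. The marrow count went from 1 to 2 at 24 h with normexp background correction and with a trended, robust variance, through Serpina3n. At 48 h it was 2 with each of these, through Mt1, 3 with array weights, through Mt1 and Serpina3n, and 1 to 2 over left-out arrays, 2 without marrow 0 h replicate 1, through Itih3. Serpina3n and Itih3 were kept for marrow only through a later time, which favours such calls. The count of 0 between tissues at 24 h was 0 to 2 over left-out arrays. The count of 27 members between marrow and liver at 0 h was 26 to 29. The 10 members in the top 10% of liver spread were 23 with normexp and 18 in the authors' processed values, 7 with no filter on dim probes, and 8 to 13 over left-out arrays. The cause of these shifts was not tested. Among the liver differences from 0 h, 6 members at 24 h and 11 at 48 h changed sign (of 31) under at least 1 alternative, all of them uncalled. The number of genes called in marrow ranged from 27 to 297 at 24 h and from 84 to 624 at 48 h, so the background percentages depend on the setting.

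With the replicate block, Mt2 in marrow had limma adjusted p-values of 0.0247 and 0.00754, and 27 and 92 genes were called; the count between tissues at 0 h was 28 in place of 27, and no other count of members called changed. Correlations of deviations between same-numbered arrays ran from -0.27 to 0.16 in liver and from -0.25 to 0.20 in marrow. Between liver and marrow at 0 h they ran from 0.07 to 0.14, each above the other 12 pairs (highest 0.06), a hint from the data and not the design.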
